A study of Homo sapiens with 6 samples.

Results

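The genes described here are 33 known targets of the hypoxia-inducible factors (HIF-1 and HIF-2) that are neither glycolytic enzymes nor lipid droplet genes, out of 61860 genes in the count table. They were chosen by name and not by their values, but with earlier results of these data known. Each symbol matched 1 row of the table. They were measured by RNA sequencing in A498, a human line from a clear cell kidney carcinoma, in 3 libraries of a control for the knockdown of the receptor tyrosine phosphatase PTPRZ1 (PTPRZ-nc) and 3 libraries of the knockdown (PTPRZ-Si). Per the labels, a plasmid was the means of knockdown for the control and siRNA for the knockdown, both groups carry the same treatment label of transfection or infection, and all cells grew in MEM with 10% serum at 37 °C and 5% CO2. The oxygen level, the siRNA sequence and the time after transfection were not given in the sources used here. An effect of plasmid against siRNA cannot be told apart from the knockdown.

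HIF is a pair of proteins: an oxygen-regulated alpha subunit (HIF1A or EPAS1, the latter also called HIF-2 alpha) and the partner ARNT. When oxygen is present, the prolyl hydroxylases of the EGLN family mark the alpha subunit, and the VHL ubiquitin ligase then has it degraded. Most clear cell kidney cancers, and the A498 line, have lost VHL function, so that HIF can act without hypoxia. The targets change how the cell makes blood vessel signals, handles acid, builds collagen, runs its mitochondria and brakes HIF itself.

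Total counts in genes ran from 13726908 to 21469746 per library. PTPRZ1 had 0 counts in all 6 libraries, which allows at most 0.0607 CPM (counts scaled to a common library size, with TMM factors) over the 3 controls together. This limit covers counting error only and is no bound on expression, since a gene that most cells use (MIF) is also listed at 0 in this table. The knockdown could not be checked by its target and every direction rests on the group labels. RNF26, the ligase named in the series title, was at 49.7, 49.3 and 47.9 CPM in the controls against 39.3, 38.8 and 45.2 CPM in the knockdown (edgeR adjusted p = 0.0128 for a log2 change of -0.25, SE 0.0695), and did not pass without knockdown replicate 1 or 2 (edgeR adjusted p = 0.061 and 0.0697). All 10 markers of kidney tubule and renal carcinoma fixed for the check of cell type had counts. Their sum was 3122 to 3169 CPM in the controls and 3187 to 3317 CPM in the knockdown. That sum hides changes in both directions. Of the 10 markers, 6 rose (60%, against 14.0% of all tested genes) and 2 fell (20%, against 13.4%). PAX8 rose from a mean of 313 to 556 CPM, and VIM fell from 1181 to 788 CPM. CA9 is both a marker and a member. Summed markers of fibroblasts were at 31.4 to 41.7 CPM in the controls and 21.6 to 23.8 CPM in the knockdown, nearly all of it COL1A1, with LUM at 0. Endothelial markers summed to 1.28 to 1.61 and 1.87 to 2.58 CPM, with CDH5 at 0, and leukocyte markers to 2.19 to 3.10 and 1.95 to 2.34 CPM, with PTPRC and CD3E at 0. Neural markers summed to 71.0 to 78.2 and 67.4 to 71.0 CPM, most of it MBP. The part of these marker levels in the results was not tested. Whether replicates were separate cultures is not stated in the labels, and p-values here reflect a spread among libraries that may be technical.

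More of these HIF targets were lower than higher in the knockdown. Of the 33 members, 32 had enough counts to be tested. In edgeR's quasi-likelihood test 12 fell (37.5% of those tested, against 13.4% of all 15476 tested genes), 4 rose (12.5%, against 14.0%) and 16 did not pass an adjusted p of 0.05. With only genes at a mean of at least 5 CPM tested, 1963 of 11014 genes fell and 2125 rose. Of the 29 members among them, 12 fell and 4 rose. In bulk RNA, fewer cells that express a gene and less of its RNA per cell cannot be told apart. The median log2 fold change was -0.13 over the members and 0.00103 over all tested genes. The members that fell were P4HA2, ERO1A, ADM, EGLN3, SAP30, VEGFA, WSB1, NDRG1, ZNF395, KDM3A, BHLHE40 and PLOD2, and those that rose were MXI1, BHLHE41, P4HA1 and BNIP3. Control and knockdown libraries did not overlap for any of these 16, while they overlapped for each of the 16 that did not pass; over all tested genes 40.8% had no overlap, and 26.6% had no overlap and were called. Most changes were small. The median change of the 16 called members was 1.30-fold, against 1.26-fold for all called genes. Only P4HA2, ERO1A and ADM changed by 1.5-fold or more.

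**Figure D1:**
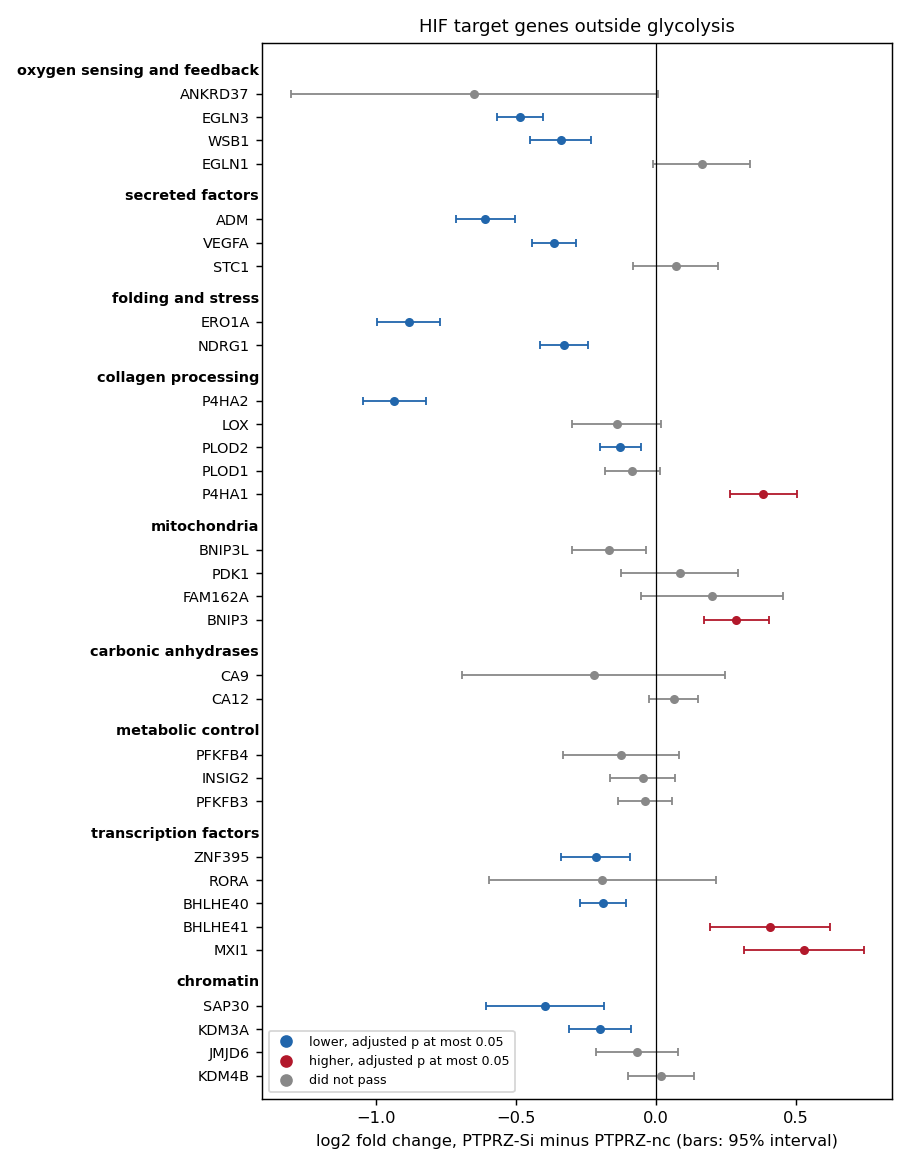
Log2 fold change of each of the 32 tested members (horizontal axis, knockdown minus control, with 95% intervals before adjustment for multiple tests), grouped by role; colours give the call at an edgeR adjusted p of 0.05. P4HA2 and ERO1A lie farthest to the left among the called genes and MXI1 farthest to the right, and low-count genes such as ANKRD37 and CA9 have the widest intervals.

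The members spanned a wide range of levels. Per length of exon, in FPKM (CPM per kilobase), NDRG1 was the highest in the controls at a mean of 255 FPKM, followed by CA12 at 187, BHLHE40 at 98.5, PLOD2 at 85.8 and EGLN3 at 74.3 FPKM. The lowest of the tested members were ANKRD37 at 1.06, PDK1 at 0.997 and RORA at 0.252 FPKM. These ranks rest on the exon lengths used, 14883 bases for PDK1 and 17040 for RORA. In CPM, PDK1 was at a mean of 14.8 in the controls, above BHLHE41 at 13.4 and FAM162A at 9.1. CA9, the carbonic anhydrase widely used as a marker of clear cell kidney cancer, was at only 1.79 FPKM. The median coefficient of variation of a tested member was 6.56% in the controls and 2.91% in the knockdown. Control replicate 2 stood apart. Over the tested genes with enough counts in a pair, chi-square divided by its degrees of freedom was 5.25 and 6.26 for that library with the other controls. For the other pairs within a group it was 2.16 to 3.50.

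Among the genes of oxygen sensing and its feedback, EGLN3 and WSB1 fell. EGLN3 (chr14:33924231-34462774, GRCh38, minus strand) encodes the prolyl hydroxylase that HIF induces most readily and that acts back on it. Its level was 532, 571 and 537 CPM in the controls and 395, 391 and 386 CPM in the knockdown. Every knockdown library was below every control, and the log2 fold change was -0.48 (SE 0.0389, edgeR adjusted p = 8.645e-08). WSB1, a substrate receptor of a ubiquitin ligase, was at 106, 117 and 110.5 CPM in the controls and at 88.1, 90.05 and 84.8 CPM in the knockdown (a log2 fold change of -0.34, SE 0.0518). EGLN1, the main oxygen sensor among the hydroxylases, did not pass (0.16, SE 0.0822, edgeR adjusted p = 0.156). Its controls were spread from 40.2 to 53.4 CPM and enclosed the knockdown values of 49.7, 51.7 and 53.0 CPM. Control replicate 2 was the highest of them, and without it EGLN1 passed as higher (0.27, edgeR adjusted p = 0.00295), while without control replicate 3, the lowest, it was at 0.07 (edgeR adjusted p = 0.571). ANKRD37, a small ankyrin repeat protein, had only 237 counts over the 6 libraries. Its log2 fold change of -0.65 had an interval from -1.30 to 0.00718 and did not pass (edgeR adjusted p = 0.138), except without knockdown replicate 3 (-1.08, edgeR adjusted p = 0.0315). It was at -0.39 without knockdown replicate 2 and at -0.43 without control replicate 3 (edgeR adjusted p = 0.419 and 0.425).

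Both the blood vessel growth factor VEGFA and the vasodilator peptide adrenomedullin fell. VEGFA (chr6:43770184-43786487, plus strand) was at 639, 654 and 613 CPM in the controls and 499.7, 488 and 493 CPM in the knockdown. The groups were well apart, with a log2 fold change of -0.36 with an SE of 0.0372 (edgeR adjusted p = 1.37e-06). ADM (chr11:10304680-10307397, plus strand), which encodes adrenomedullin, went from 114, 121 and 112 CPM to 77.4, 76.2 and 74.1 CPM. This was a 1.52-fold fall (log2 fold change -0.61 with an SE of 0.0506 and an edgeR adjusted p of 1.363e-07). The third secreted factor, the hormone stanniocalcin (STC1), was at 70.3, 56.0 and 68.1 CPM in the controls and 66.6, 67.9 and 70.2 CPM in the knockdown, with control replicate 2 apart from the other libraries. It did not pass (0.07, 95% interval -0.08 to 0.22).

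The oxidase ERO1A and the stress protein NDRG1 fell. ERO1A (chr14:52639916-52695900, minus strand) forms the disulfide bonds of secreted proteins, VEGFA among them, by reoxidising protein disulfide isomerase in the endoplasmic reticulum. It was at 85.4, 87.0 and 85.2 CPM in the controls and 47.2, 45.4 and 47.2 CPM in the knockdown. This was a 1.84-fold fall with tight replicates (log2 fold change -0.88 with an SE of 0.0534 and an edgeR adjusted p of 2.578e-09). NDRG1, the most abundant member, went from 2646, 2307 and 2547 CPM to 2013, 1967 and 2000 CPM. The lowest control, replicate 2, was still above the highest knockdown library (log2 fold change -0.33 with an SE of 0.0405 and an edgeR adjusted p of 1.153e-05).

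**Figure D2:**
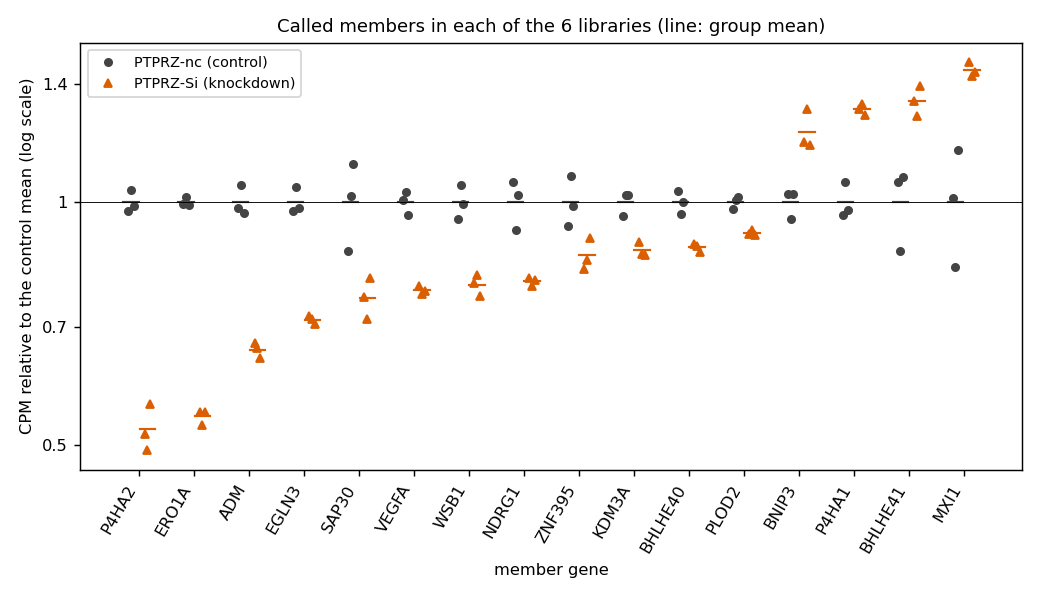
Level of each of the 16 called members in every library (vertical axis, CPM divided by the mean of the 3 controls, log scale), with circles for PTPRZ-nc, triangles for PTPRZ-Si and lines for group means. No knockdown library reaches into the range of the controls for any of the 16 genes, and the controls of SAP30 and MXI1 are the most spread.

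The enzymes that modify collagen moved in both directions. P4HA1 and P4HA2 are alternative catalytic subunits of collagen prolyl 4-hydroxylase, which stabilises the collagen triple helix. P4HA2 (chr5:132191838-132295315, minus strand) was at 174, 185 and 177 CPM in the controls and 92.1, 87.9 and 100.4 CPM in the knockdown. It had the largest change of all called members, a 1.91-fold fall (log2 fold change -0.93 with an SE of 0.053 and an edgeR adjusted p of 1.254e-09). P4HA1 (chr10:73007217-73096974, minus strand) went the other way, from 52.3, 57.4 and 52.9 CPM to 70.8, 71.7 and 69.6 CPM (log2 fold change 0.39 with an SE of 0.057 and an edgeR adjusted p of 7.432e-05). The per-length level of P4HA2 was above that of P4HA1 in the controls (21.0 against 17.5 FPKM) and below it in the knockdown (11.0 against 22.9 FPKM). This crossing rests on the exon lengths used, 8502 bases for P4HA2 and 3093 for P4HA1. In CPM, P4HA2 stayed above P4HA1 in both groups. PLOD2, a lysyl hydroxylase that prepares collagen for crosslinks, was at 642, 661 and 665 CPM in the controls and 599, 606 and 598 CPM in the knockdown. The fall was slight (log2 fold change -0.13 with an SE of 0.0347 and an edgeR adjusted p of 0.0113) and did not pass without knockdown replicate 1 or 3 (edgeR adjusted p = 0.0577 and 0.0522). PLOD1 (-0.08) and the collagen crosslinking oxidase LOX (-0.14) did not pass.

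Of the 4 mitochondrial members tested, BNIP3 alone passed the test (25%, against 27.4% of all tested genes). BNIP3 and its relative BNIP3L are outer membrane receptors that mark mitochondria for autophagy. BNIP3 (chr10:131966455-131982013, minus strand) rose from 92.5, 86.2 and 92.7 CPM to 107, 118 and 106 CPM (log2 fold change 0.29 with an SE of 0.0543 and an edgeR adjusted p of 0.00071). BNIP3L had values of 79.6, 71.4 and 80.7 CPM in the controls and 70.9, 72.3 and 64.0 CPM in the knockdown. The groups overlapped through control replicate 2, and the log2 fold change of -0.17 missed the threshold (SE 0.0628, edgeR adjusted p = 0.0599). It passed without that library (-0.22, edgeR adjusted p = 0.00453), without TMM factors (edgeR adjusted p = 0.0461) and without the filter on low counts (edgeR adjusted p = 0.0308). PDK1, a kinase that inhibits pyruvate dehydrogenase, was at 0.09 (95% interval -0.12 to 0.30), and FAM162A, a mitochondrial protein, at 0.20 (-0.05 to 0.46). NDUFA4L2, a mitochondrial member that is high in many clear cell tumours, was not tested. Its raw counts were 1, 0 and 16 in control libraries and 2, 3 and 4 in knockdown libraries.

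Neither the carbonic anhydrases nor the members of metabolic control passed. CA12, which acidifies the outside of the cell together with CA9, was at 1426, 1257 and 1415 CPM in the controls and 1431, 1424 and 1431 CPM in the knockdown (a log2 fold change of 0.06, 95% interval -0.02 to 0.15). CA9 had 291 counts over the 6 libraries, and its interval of -0.69 to 0.25 left room for changes in either direction. PFKFB3 and PFKFB4 set the level of fructose 2,6-bisphosphate, the activator of glycolysis, and INSIG2 retains the sterol sensor in the endoplasmic reticulum. Their log2 fold changes were -0.04 (95% interval -0.14 to 0.06), -0.12 (-0.33 to 0.08) and -0.05 (-0.16 to 0.07).

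The transcription factors divided. MXI1, an antagonist of MYC, rose from 17.5, 14.4 and 20.1 CPM to 25.9, 24.8 and 25.1 CPM. This was the largest rise among the members (log2 fold change 0.53 with an SE of 0.101 and an edgeR adjusted p of 0.000791). BHLHE40 and BHLHE41 are related repressors of the circadian clock. BHLHE41 rose from 14.1, 11.6 and 14.4 CPM to 17.9, 17.1 and 18.6 CPM (0.41, SE 0.101, edgeR adjusted p = 0.00588). BHLHE40 fell from 390, 366 and 378 CPM to 335, 333 and 328 CPM (-0.19, SE 0.0392, edgeR adjusted p = 0.00171). ZNF395, a zinc finger protein, was at 89.1, 103 and 94.4 CPM in the controls and 78.8, 80.9 and 86.2 CPM in the knockdown (-0.21, SE 0.0584, edgeR adjusted p = 0.011), and did not pass without knockdown replicate 1 (edgeR adjusted p = 0.0615). The nuclear receptor RORA, with 429 counts in all, did not pass (-0.19, 95% interval -0.60 to 0.21).

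Among chromatin genes, SAP30 and KDM3A fell. SAP30, a subunit of the SIN3 histone deacetylase complex, was at 19.1, 22.3 and 24.4 CPM in the controls and 16.7, 15.7 and 17.6 CPM in the knockdown (log2 fold change -0.40 with an SE of 0.0993 and an edgeR adjusted p of 0.00647). KDM3A, a demethylase of histone H3 lysine 9 that itself needs oxygen, went from 76.3, 81.2 and 81.0 CPM to 70.8, 68.6 and 68.3 CPM (-0.20, SE 0.0524, edgeR adjusted p = 0.00864). The demethylase KDM4B (0.02, 95% interval -0.10 to 0.14) and the hydroxylase JMJD6 (-0.07, -0.21 to 0.08) did not pass.

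Some members share exon bases with neighbouring genes. Read pairs that fit more than 1 gene are left out by the counting program's default, and strand was not used. In the GENCODE 29 annotation 18 of the 33 members share exon bases with another gene, but only CA9 (38.5%, with ARHGEF39), ANKRD37 (35.2%, with UFSP2) and ZNF395 (34.9%, with FBXO16) share more than 10%. The effect of this on their levels was not tested.

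Relatives within the list were then compared with each other, library by library. Of 7 pairs of paralogs, the ratio of the first gene to the second did not overlap between the groups in 4. Each of these pairs holds a member that was called on its own. Of single tested genes, 40.8% had no overlap, and the share for ratios of other gene pairs was not computed. With single libraries left out, which leaves fewer values to overlap, the ratio did not overlap in 4 to 6 pairs. For P4HA1 over P4HA2 the log2 ratio of CPM was -1.73, -1.68 and -1.73 in control libraries against -0.38, -0.29 and -0.53 in knockdown libraries. The difference between the log2 fold changes of the pair was 1.32 (95% interval 1.17 to 1.47, from the edgeR standard errors with the errors of both genes taken as independent). For EGLN1 over EGLN3 this difference was 0.65 (0.47 to 0.83), for BHLHE40 over BHLHE41 -0.60 (-0.81 to -0.38) and for BNIP3 over BNIP3L 0.45 (0.29 to 0.62). In each of these 4 pairs the exact permutation test over libraries, 2-sided, gave p = 0.1, the smallest that 3 against 3 can give (0.175 after Benjamini-Hochberg adjustment over the 7 pairs). The pairs PLOD1 and PLOD2 (0.04, interval -0.07 to 0.16), PFKFB3 and PFKFB4 (0.09, -0.13 to 0.30) and CA9 and CA12 (-0.29, -0.73 to 0.16) overlapped, with exact permutation p = 0.6, 0.4 and 0.2. Over the libraries left out in turn, the mean difference in log2 ratio ran from 0.0111 to 0.0999 for the PLOD pair (lowest without control replicate 3, highest without control replicate 1). It ran from 0.0466 to 0.148 for the PFKFB pair (without knockdown replicates 2 and 1) and from -0.36 to -0.0881 for the carbonic anhydrases (without control replicates 1 and 2). The narrow interval of the PLOD pair leaves less room for a difference than that of the carbonic anhydrases.

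**Figure D3:**
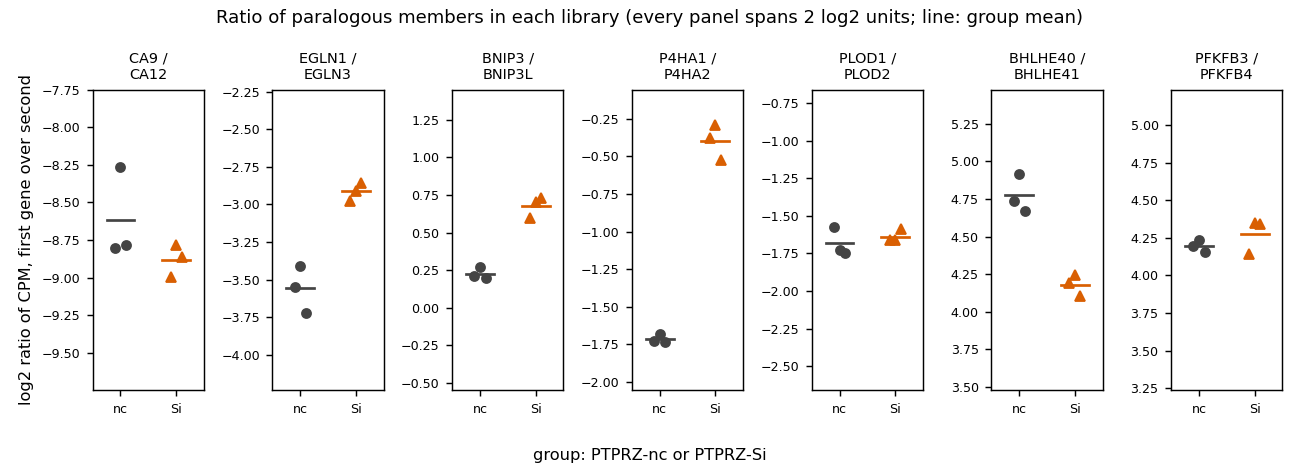
Log2 ratio of CPM of the first gene over the second (vertical axis; every panel spans 2 log2 units) in the 3 control (nc, circles) and 3 knockdown (Si, triangles) libraries for the 7 paralog pairs, with lines for group means. The ratio of P4HA1 to P4HA2 moved from a mean of -1.71 to -0.40, and the PLOD and PFKFB ratios overlap between the groups.

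HIF binds DNA at a short core, most often ACGTG and also GCGTG, so the promoters of the members were read for both. The RefSeq promoter table (GRCh38.p14, 250 bases before to 50 after each annotated start) held 34 windows for 26 of the members. VEGFA, NDRG1, BNIP3L, NDUFA4L2, JMJD6, ZNF395 and STC1 were not analysed here. On either strand, ACGTG occurred in 17 of the 26 genes (65.4%, 95% Wilson interval 46.2 to 80.6), against 32.0% of the 11060 tested genes with a window. GCGTG occurred in 15 of 26 (57.7%), against 57.5% of those tested genes. The E-box CACGTG, which contains ACGTG on both strands and is the site bound by MXI1 and the BHLHE40 family, occurred in 7 (26.9%, against 12.3%). These genes were listed as HIF targets, so the match is a description of the list. ACGTG was present in all 4 members that rose, in 4 of the 9 that fell and had a window, and in 9 of the 13 that did not pass. P4HA2, EGLN3, SAP30 and RORA had neither core in their windows, which says only that these letters are not in that stretch.

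The following stretches, 29 bases each, show the core (in capitals) in the members that rose, in those that fell with an ACGTG, and in the hypoxia genes CA9 and EGLN1, which did not pass. They are written 5′ to 3′ on the strand of the gene, so CACGT is ACGTG read on the other strand.
BNIP3: cgcacgcgccgcACGTGccacacgcaccc
P4HA1: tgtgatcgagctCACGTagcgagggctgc
BHLHE41: ggtacgttccgcACGTGagctgggtgctg
MXI1: gtggccaccagtCACGTaagcagagagcc
ERO1A: cgggcgccgcggCACGTccacaggctggg
PLOD2: caaacagtccagACGTGgggcccaggagg
WSB1: ggctgtgacgtcACGTGgccgcgcccctg
BHLHE40: ggcagtggccagACGTGcctggagtcaca
CA9: tcgtttccaatgCACGTacagcccgtaca
EGLN1: gggccgtggtgtACGTGcagagcgcgcag
In GRCh38.p14 they lie at chr10:131982040-131982068 (BNIP3, minus strand), chr10:73096936-73096964 (P4HA1, minus), chr12:26125068-26125096 (BHLHE41, minus) and chr10:110210106-110210134 (MXI1, plus). The others lie at chr14:52695656-52695684 (ERO1A, minus), chr3:146161314-146161342 (PLOD2, minus), chr17:27294045-27294073 (WSB1, plus), chr3:4979251-4979279 (BHLHE40, plus), chr9:35673898-35673926 (CA9, plus) and chr1:231422284-231422312 (EGLN1, minus). In BNIP3, BHLHE41 and WSB1 the core shown is part of a CACGTG. The core of CA9 begins 18 bases and that of EGLN1 13 bases before the annotated start, while that of PLOD2 begins 146 bases before it.

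**Figure D4:**
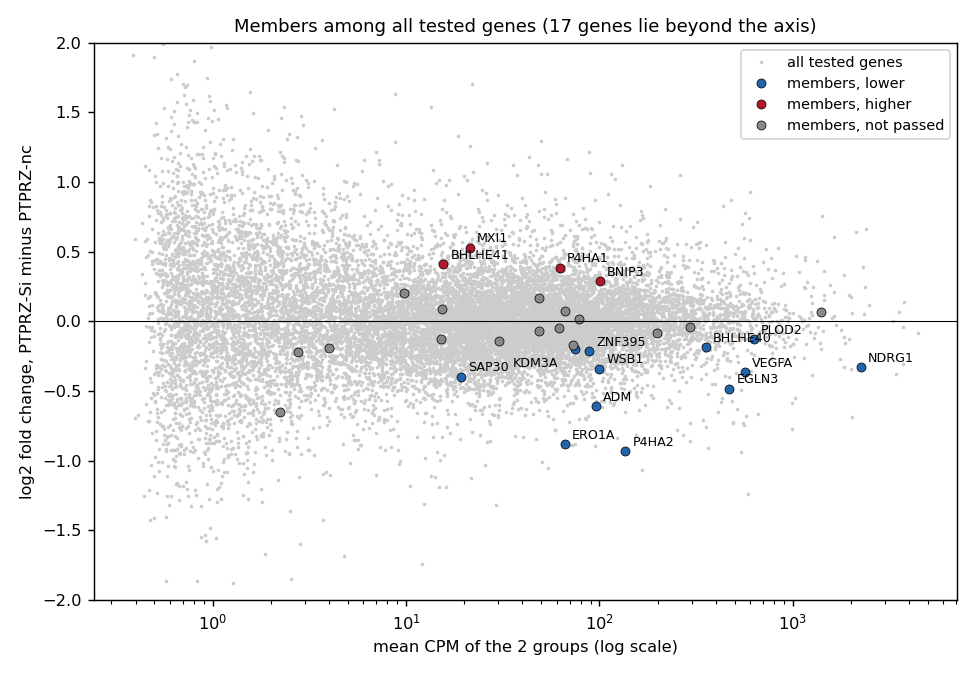
Log2 fold change (vertical axis) against the mean CPM of both groups (horizontal axis, log scale) for all tested genes (grey) and the members (coloured by call, with the called ones named); 17 genes lie beyond the vertical axis. Among members with high counts, NDRG1, VEGFA and EGLN3 lie below 0, while CA12 (0.06) did not pass. The members at the left edge, with few counts, did not pass.

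The genes that make and control HIF itself did not move as 1 group. Of 17 tested genes in a list of 18 subunits, hydroxylases, ligase components and coactivators, 4 rose, 3 fell and 10 did not pass (41.2% called, against 27.4% of all tested genes), with a median log2 fold change of -0.02. With only genes at a mean of at least 5 CPM tested, 9 of the 17 were called, against 4088 of 11014 genes. The 2 alpha subunits went in opposite directions. HIF1A was at 363, 327 and 388 CPM in the controls and 534, 536 and 535 CPM in the knockdown (log2 fold change 0.57 with an SE of 0.0497 and an edgeR adjusted p of 2.164e-07). EPAS1, the alpha subunit of HIF-2, went from 261, 252 and 263 CPM to 211, 207 and 218 CPM (-0.29, SE 0.0415, edgeR adjusted p = 5.514e-05). Per length, HIF1A was above EPAS1 in the controls, at 69.8 against 35.4 FPKM. CREBBP, a coactivator that binds HIF, rose (0.68, SE 0.0596), and HIF1AN, the asparaginyl hydroxylase that blocks that binding, fell (-0.28, SE 0.0485). ARNT, the shared partner, passed narrowly as lower (-0.22, SE 0.0786, edgeR adjusted p = 0.0495) and did not pass in 8 of 13 alternatives, where the edgeR, DESeq2 or limma adjusted p reached 0.178. VHL did not pass (0.12, 95% interval from -0.02 to 0.25). These are mRNA levels, and HIF alpha is controlled mainly as a protein, which was not measured here.

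Other known HIF targets, from a list that does not overlap the members, were also lower more often than higher. Of 22 tested genes of 29 listed, 11 fell (50%, against 13.4% of all tested genes), 4 rose (18.2%, against 14.0%) and 7 did not pass, with a median log2 fold change of -0.14. With only genes at a mean of at least 5 CPM tested, 11 of 19 fell and 4 rose, against 1963 and 2125 of 11014 genes. ANGPTL4, an inhibitor of lipoprotein lipase, fell from 234, 231 and 211 CPM to 106, 105 and 112 CPM (-1.06, SE 0.05). TGFA, a growth factor, fell from 808, 811 and 814 CPM to 517, 511 and 506 CPM (-0.67, SE 0.034). The carrier of insulin-like growth factors IGFBP3 fell by 0.68 on the log2 scale (SE 0.0294). HMOX1, the heme oxygenase, rose from 162, 162 and 153.5 CPM to 279, 279 and 276 CPM (0.81, SE 0.0418). ANGPTL4, TGFA, IGFBP3 and HMOX1 also respond to other signals. The other genes that rose were CCND1 (0.25), GBE1 (0.22) and MET (0.12), named here after their values were seen. Among the 7 that were not tested, MIF, a gene most cells use, was listed at 0, so a gene listed at 0 in this table is not shown to be silent.

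**Figure D5:**
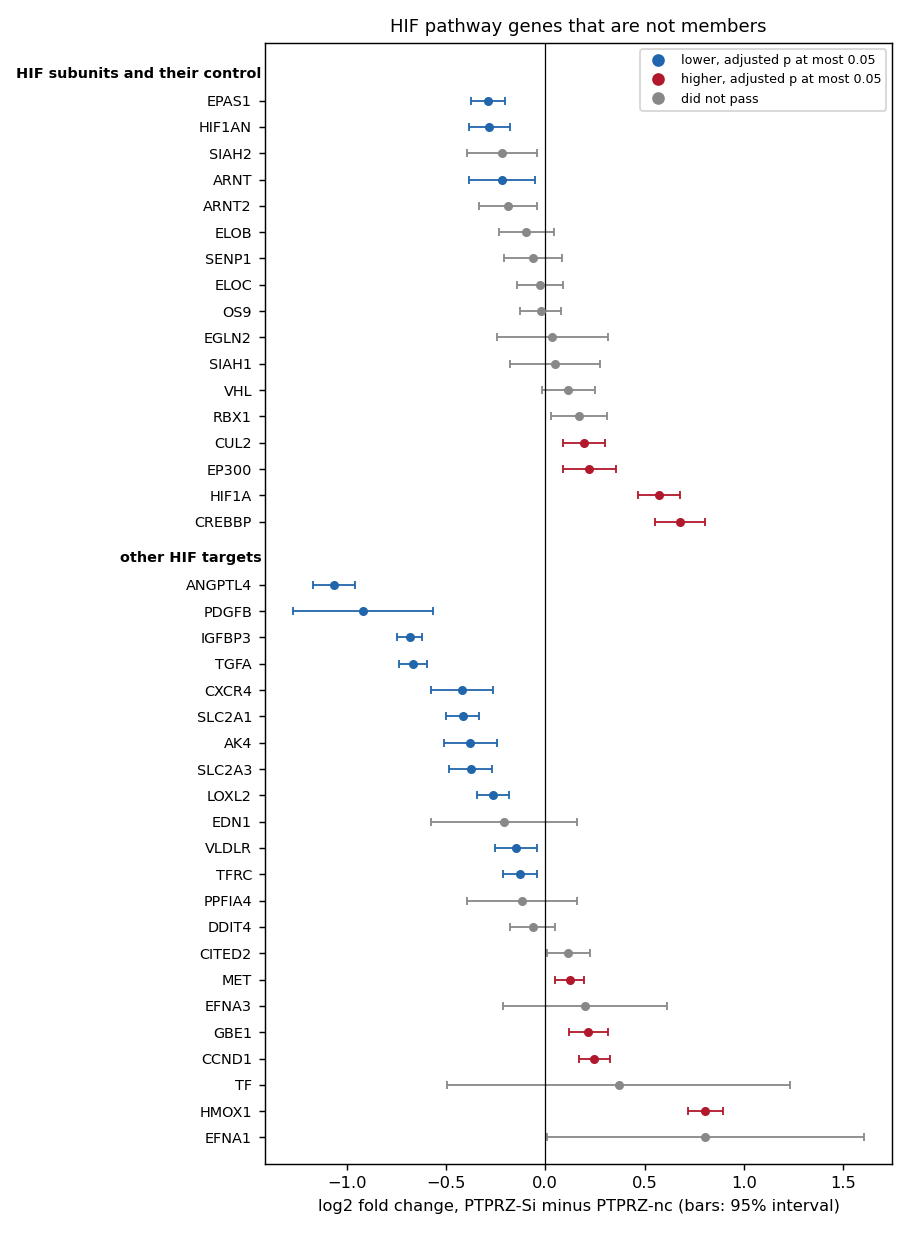
Log2 fold change (horizontal axis, knockdown minus control, with 95% intervals before adjustment for multiple tests) of the tested genes that make and control HIF and of other HIF targets; colours give the call at an edgeR adjusted p of 0.05. HIF1A (0.57) and EPAS1 (-0.29) lie on opposite sides of 0, and ANGPTL4 (-1.06) has the lowest value of the genes shown.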

How the data were processed

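The deposited values are raw counts of read pairs per gene. FeatureCounts 2.0.1 made them, per the file headers, in paired mode over exons of Ensembl release 107 (GRCh38), from alignments named hisat, with no strand option. The version of the aligner was not given in the sources used here. Libraries were made with a directional kit, per the labels' protocols. Groups and replicate numbers came from the sample titles.

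Genes were filtered with filterByExpr (15476 kept, 99.82% of the counts), scaled by TMM and tested with edgeR 4.0.16 (glmQLFit, glmQLFTest, 2-sided) in R 4.3.3, with Benjamini-Hochberg adjustment over all tested genes and a threshold of 0.05. Standard errors are the log2 fold change divided by the square root of F. CPM is the usual depth-scaled count, with TMM factors, and FPKM used exon lengths of GENCODE 29, not the release of the counting. Log2 ratios of paralogs used CPM + 0.5. The fit was tested on simulated data, with the same dispersion for all genes. It called 30 of 50 genes changed 1.25-fold, 43 of 50 changed 1.5-fold and 12 of 15067 unchanged genes. Small changes can therefore be missed, and a gene that did not pass is not shown to be unchanged. No library was counted as a copy of another: within groups, chi-square divided by its degrees of freedom was 2.16 to 6.26, highest for pairs with control replicate 2. Total counts were 13726908 to 21469746 per library, and intervals cover these libraries only.

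The members, lists and tests were chosen with earlier results of these data known. Members were all to be named, with values in every library for those called. From each other list the 4 called genes with the smallest p were to be named, and PTPRZ1, RNF26, HIF1A, EPAS1, ARNT and VHL always. Alternatives were other scalings and filters, DESeq2 1.42.0, limma-voom 3.58.1, a replicate block and leaving out each library. Leave-one-out for the paralog ratios was added after seeing the data. After the analysis, 1 gene of the list of other HIF targets was left out of that list and is not reported here; the next gene by p was named in its place, and the tests across all genes did not change.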

Additional observations from a re-analysis of the deposited data

How the results depend on the processing

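Of the results on single members, 14 of the 16 calls kept their side of the threshold and direction under all 13 alternatives, the exceptions being PLOD2 and ZNF395. The number of members that rose was 4 in every alternative but 1, with 5 without control replicate 2, and the number that fell was 10 to 13. The members' median log2 fold change ran from -0.15 to -0.11 when single libraries were left out. Of the 16 members that did not pass, 13 stayed so, and EGLN1, ANKRD37 and BNIP3L passed under at least 1 alternative. Near-zero values changed sign when single libraries were left out: KDM4B ran from -0.0291 to 0.0463, PFKFB3 from -0.0813 to 0.0109 and STC1 from -0.0200 to 0.132, none of them past the threshold; the cause was not tested. Same-numbered libraries of the groups did not deviate together beyond a correlation of 0.0226 to 0.0333, below the 0.1 set for pairing. Each control library correlated best with the knockdown library of its own number. At values this low, that does not show pairing, and the design states none. With the replicate number as a block, 4101 genes were called in place of 4243, and 12 members fell and 4 rose, as without the block. ACGTG or GCGTG was found in 84.6% of members with a window (95% Wilson interval 66.5 to 93.8) against 69.3% of tested genes, and within the 250 bases before the start alone in 84.6% against 64.1%. Depth limits CA9, ANKRD37 and RORA (237 to 429 counts in all) and NDUFA4L2 (26 counts).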

Other observations

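The glycolytic HIF targets, which are not among the members, were divided. Of 19 tested genes 5 rose, 4 fell and 10 did not pass (47.4% called, against 27.4% of all tested genes), with a median log2 fold change of 0.02. With only genes at a mean of at least 5 CPM tested, 9 of the 19 were called, against 4088 of 11014 genes. The counts of glycolytic targets changed with single libraries left out. In all, 2 rose and 4 fell without knockdown replicate 1, and 3 rose and 5 fell without control replicate 3. Without knockdown replicate 3 the counts were 3 and 4. Over all tested genes fewer were called in these fits too, 3182, 3750 and 3200 in that order, against 4243 with every library. The part of this in the counts was not tested. Without TMM factors 4 glycolytic targets rose and 5 fell. The glucose transporter SLC2A1 fell from 845, 766 and 791 CPM in the controls to 609.5, 592 and 597 CPM in the knockdown (log2 fold change -0.42, SE 0.0396, edgeR adjusted p = 5.689e-07), and SLC2A3, a second glucose transporter, fell by 0.38 on the log2 scale (SE 0.0506). Both are also on the list of other HIF targets. The enolases ENO1 and ENO2 went in opposite directions. ENO1 rose from 2236, 2073 and 2123 CPM to 2544, 2505 and 2588 CPM (0.25, SE 0.0327, edgeR adjusted p = 2.255e-05), and ENO2 fell from 28.8, 31.9 and 29.3 CPM to 20.1, 19.0 and 18.9 CPM (-0.64, SE 0.0784, edgeR adjusted p = 1.074e-05). The difference between the enolases was not tested.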
